A study of Drosophila melanogaster with 3 samples.

Results

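The 88 genes of cytosolic ribosomal proteins, 50 for the large subunit and 38 for the small subunit, were examined for binding of Rel in Drosophila larvae. They were taken as all protein-coding genes whose symbol begins with RpL or RpS followed by a digit, out of 13945 protein-coding genes on the 6 chromosome arms that hold peaks. Binding was measured by ChIP-seq (sequencing of DNA recovered by chromatin immunoprecipitation) in a transgenic line in which GFP is fused to the N-terminus of Rel, using an anti-GFP antibody. Whole larvae of the third instar, at the wandering stage, were used, with males and females pooled and age recorded as unknown. The 3 samples were 3 biological replicates of 1 group from 1 line, so no treatment, genotype or time was compared, and the spread given is that between these samples. A signal from whole larvae cannot tell strong binding in few cells from weak binding in many.

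Relish, the product of Rel, belongs to the NF-κB family. The IMD pathway activates it in response to bacteria, and it is best known for switching on antimicrobial peptide genes through κB sites. Ribosomal protein genes encode the protein part of the ribosome. Many are haploinsufficient in the fly, and loss of 1 copy gives the slow-growing Minute phenotype. Their promoters often start transcription at a pyrimidine-rich TCT element in place of the usual initiator, and Trf2, M1BP and Dref are known to act at them.

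Among members on arms 2L, 3L, 3R and X, the promoters of the 4 per subunit with the highest peak signal and that peak's summit within 100 bp of a transcription start site (TSS) are given as examples of where the peaks lay. Each line holds 120 bases of the RefSeq release 6 genome on the gene's strand, 100 before the annotated TSS nearest to the summit and 20 from the TSS on. The positions are 2L:10201000-10201119 (RpL7, plus strand), 3R:25685032-25685151 (RpL27, minus), 2L:9967213-9967332 (RpL13, plus), 3L:8600906-8601025 (RpL14, plus), 3R:25247495-25247614 (RpS27, minus), 3L:13041701-13041820 (RpS4, plus), X:7934798-7934917 (RpS14b, plus) and 3R:9777997-9778116 (RpS29, plus). Capitals mark a TCT match with its second base within 5 bp of the TSS (TCTTTC on the gene's strand, in which the first base may also be C and the last base T), a DNA replication-related element (DRE, TATCGATA, either strand) or an E-box (CACGTG, either strand).
RpL7: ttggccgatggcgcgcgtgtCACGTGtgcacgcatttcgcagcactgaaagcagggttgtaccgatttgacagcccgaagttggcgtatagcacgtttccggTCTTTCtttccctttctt
RpL27: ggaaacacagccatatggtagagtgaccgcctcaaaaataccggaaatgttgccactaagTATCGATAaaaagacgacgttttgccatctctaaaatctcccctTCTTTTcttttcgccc
RpL13: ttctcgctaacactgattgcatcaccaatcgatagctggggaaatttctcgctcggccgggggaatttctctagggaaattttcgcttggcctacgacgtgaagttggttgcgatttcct
RpL14: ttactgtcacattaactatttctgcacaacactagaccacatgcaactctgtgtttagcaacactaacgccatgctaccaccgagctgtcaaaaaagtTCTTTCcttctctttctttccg
RpS27: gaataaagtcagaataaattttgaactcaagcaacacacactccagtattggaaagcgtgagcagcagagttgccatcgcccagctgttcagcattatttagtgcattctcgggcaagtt
RpS4: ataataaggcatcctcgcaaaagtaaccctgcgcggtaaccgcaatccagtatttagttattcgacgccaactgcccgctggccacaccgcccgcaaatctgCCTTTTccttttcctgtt
RpS14b: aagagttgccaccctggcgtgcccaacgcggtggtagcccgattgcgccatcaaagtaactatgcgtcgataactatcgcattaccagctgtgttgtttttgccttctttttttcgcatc
RpS29: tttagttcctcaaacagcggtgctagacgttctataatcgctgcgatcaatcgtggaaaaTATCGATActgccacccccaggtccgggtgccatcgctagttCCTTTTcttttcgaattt
A TCT match stood at the TSS in RpL7, RpL27, RpL14, RpS4 and RpS29, and RpL27 and RpS29 also held a DRE. RpL13, RpS27 and RpS14b had no marked element at the TSS shown. RpS14b held TCTTTT just beyond the 5 bp limit, and all 3 genes had a TCT match at another of their annotated TSSs.

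Each replicate's deposited list and the list called on the 3 replicates together (the pooled list) held 30000 peaks. From these the authors derived an optimal list of 9419 peaks by the irreproducible discovery rate. A summit is the highest point of a peak, and rank 1 is the peak of highest signal in a list. Depth is unknown, since the lists hold no read counts. Replicate 2 stood apart from the others at the ribosomal protein genes. The median position of the closest summit was 2, -31 and -8 bp from the TSS in replicates 1, 2 and 3 for members, where negative is upstream. Over all protein-coding genes it was -38, -46 and -41 bp.

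Most ribosomal protein genes carried a peak at the promoter. An optimal summit lay within 1000 bp of a TSS in 71 of 88 members (80.7%, exact Clopper-Pearson 95% interval 70.9 to 88.3, which covers counting error only), against 37.9% of all protein-coding genes. Within 100 bp it was 59 of 88 members (67.0%), against 18.7% of all genes. Within 50 bp it was 45 members (51.1%), against 11.2%. Any annotated TSS counted, and genes with more TSSs had a summit within 1000 bp more often. With 1 TSS it was 35 of 45 members (77.8%), against 30.9% of all such genes. With 2 TSSs it was 23 of 28 (82.1%), against 52%. With 3 or more it was 13 of 15 (86.7%), against 69.3%, a smaller gap. Members are not replicates of a condition, so shares of members were set beside those of all genes without a test, here and in what follows.

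Each replicate showed the same picture on its own. In the full lists a summit lay within 100 bp of a TSS in 68, 60 and 72 members in replicates 1, 2 and 3, a mean of 75.8% ± 6.94 (SD, n = 3). All genes had 33.4%, 32.3% and 31.9%. In all 3 full lists at once such a summit was present at 54 members (61.4%), against 21.6% of all genes. With each replicate cut to its 9419 strongest peaks, 74, 69 and 74 members had a summit within 1000 bp (82.2% ± 3.28, SD, n = 3), against 37.9%, 38.6% and 37.8% of all genes. The pooled list placed a summit within 1000 bp at 78 members (88.6%), against 53.6% of all genes.

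**Figure D1:**
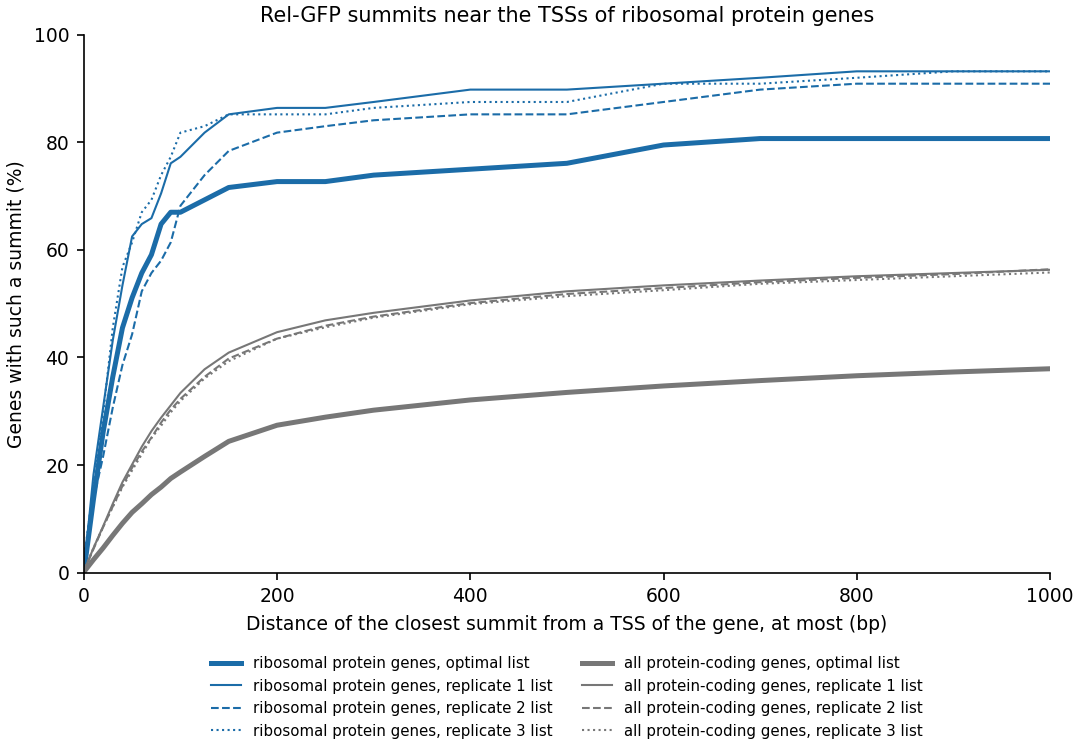
Percent of genes (vertical axis) with a Rel-GFP summit within the distance given on the horizontal axis (bp) of any of their TSSs, for ribosomal protein genes (blue) and all protein-coding genes (grey). Thick lines are the optimal list and thin lines the full replicate lists. At 100 bp the blue lines stand between 67.0% and 81.8%, and the grey lines between 18.7% and 33.4%.

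The curves of summit distance rise most steeply within 100 bp of the TSS in every list, for ribosomal protein genes and all protein-coding genes alike.

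The difference between large and small subunit genes in how many had a peak did not pass the test. Within 1000 bp, 37 of 50 large subunit genes (74%) and 34 of 38 small subunit genes (89.5%) had an optimal summit. Within 100 bp the counts were 34 of 50 large (68%) and 25 of 38 small (65.8%). In the 9419 strongest peaks of replicates 1, 2 and 3, the large subunit share minus the small subunit share within 1000 bp was -4.84, -19.5 and -9.47 points. The mean was -11.3 ± 7.48 points (SD, n = 3), with an exact two-sided sign-flip permutation p of 0.25, the smallest that 3 replicates allow. Within 100 bp the mean difference was -3.54 ± 12.5 points (exact sign-flip p = 1), and replicates 1 and 3 were above 0. With 3 replicates neither difference could pass a threshold of 0.05.

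The peaks of ribosomal protein genes were of middling strength. The strongest peak of each of the 71 members had a median rank of 3608 of 9419, against 3782.5 for the 5288 protein-coding genes with a peak. The middle 50% of members spanned ranks 2057.5 to 5391.5, a narrower range than the 1678.75 to 6157 of all genes. None of the 71 was in the top 1% of peaks, against 1.68% of genes with a peak. In the top 10% were 3 members (4.23%), against 15% of genes, and in the top 50% were 49 members (69%), against 60.5%. The median rank was 3702 for large and 3402 for small subunit genes.

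To compare replicates, the signal of the replicate peak that matched an optimal peak (summits within 100 bp) was divided by the median of all such matched signals in that replicate. This quotient is called relative signal. The median over members was 1.35, 1.07 and 1.35 in replicates 1, 2 and 3 (1.25 ± 0.159, SD, n = 3). Over all genes with a peak it was 1.15, 1.20 and 1.17 (1.17 ± 0.028). The members' median was thus above that of all genes in replicates 1 and 3 and below it in replicate 2, and without replicate 2 the members' mean was 1.36. Replicate 2 gave the lowest relative signal at 34 of the 65 members matched in all 3 replicates (52.3%), against 32.1% of genes. Large subunit genes had a median relative signal of 1.22 ± 0.109 and small subunit genes 1.27 ± 0.210 (SD, n = 3). Their difference, large minus small, was -0.048 ± 0.102 (exact two-sided sign-flip permutation p = 0.5), less than the spread between replicates.

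Among large subunit genes the strongest peak was at RpL12, whose protein sits at the base of the ribosomal stalk (rank 755, signal 1640, 2R:24060190-24060760). Its relative signal was 3.62, 4.55 and 4.10 in replicates 1, 2 and 3. The summit lay 3 bp upstream of a TSS and inside the gene's annotated span, in an intron of another transcript. RpL11, a partner of RpL5 in the 5S RNA particle, followed among peaks at the gene's own TSS (rank 1467), with relative signals of 2.57, 2.20 and 2.47. RpL19 (rank 1490), RpL34b (1493), RpL7 (1745), RpL27 (1763) and RpL13 (1852) came next. Their mean relative signals ran from 2.04 for RpL13 to 2.44 for RpL19. All 7 had summits within 133 bp of a TSS. RpL34b varied more than most, with 2.91, 1.68 and 2.68 in the 3 replicates.

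Several of the stronger small subunit peaks lay away from the TSS. RpS23, a protein of the decoding centre, had its peak 565 bp upstream, between genes (rank 1274, 2R:14216952-14217438; relative signal 2.67, 3.24 and 2.23). RpS6, the classic substrate of S6 kinase, had its strongest summit 483 bp downstream, in a coding exon (rank 1144, X:7900567-7901479; relative signal 2.34, 3.67 and 2.87). RpS27 had its strongest summit at the TSS (rank 1553, 6 bp upstream), with relative signals of 2.72, 1.66 and 2.62. At RpS5a, RpS16 and RpS28b, mean relative signal was 2.42, 2.14 and 1.89, and each of these peaks was nearer to a neighbour's TSS, as described below.

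**Figure D2:**
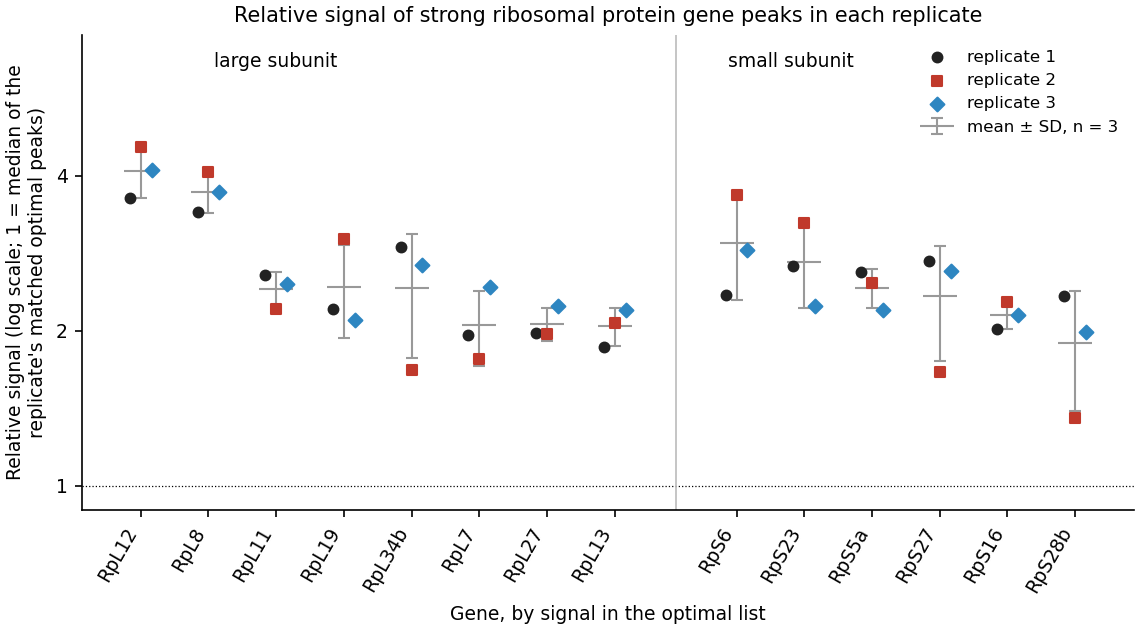
Relative signal (vertical axis, log scale, where 1 is the median of a replicate's matched optimal peaks) of 8 large subunit and 6 small subunit genes with strong peaks. Points are the 3 replicates and grey bars the mean ± SD. The values lie between 1.35 (RpS28b) and 4.55 (RpL12).

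The plot of relative signal by replicate shows the spread behind each of these peaks. RpL12 was above RpL8 and RpL8 above RpS6 in each of the 3 replicates, although their ranges overlapped, and this order was not tested.

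Summits lay closer to the TSS at ribosomal protein genes than over all genes with a peak. The median position of the strongest peak, where negative is upstream, was -23 bp (middle 50% from -78.5 to 0.5 bp), against -81.5 bp for all genes with a peak (middle 50% from -223 to 19.25 bp). It was within 100 bp at 52 of 71 members (73.2%), against 39.5% of genes with a peak. By subunit this was 31 of 37 large (83.8%) and 21 of 34 small (61.8%) genes. When the summit closest to a TSS was taken in place of the strongest, the share was 59 of 71 members (83.1%), against 49.2%. It was then 34 of 37 large and 25 of 34 small subunit genes. Proteasome subunit genes with a peak came near the members. Their strongest summit was within 100 bp at 16 of 24 (66.7%) and their closest at 17 of 24 (70.8%). At mitochondrial ribosomal protein genes with a peak the counts were 16 of 37 (43.2%) and 17 of 37 (45.9%). The strongest summit lay upstream at 53 of 71 members (74.6%), against 70.8% of genes, with 32 of 37 large and 21 of 34 small. The difference between subunits in summit position was not tested in the optimal list.

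In the replicate lists, large subunit summits lay further upstream than small subunit summits each time. The closest summit was at a median of -10, -54 and -14 bp from the TSS for large subunit genes in replicates 1, 2 and 3, and at 13, -7 and 8 bp for small subunit genes. This difference was not tested, and the values of replicate 2 were the furthest upstream in both subunits.

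**Figure D3:**
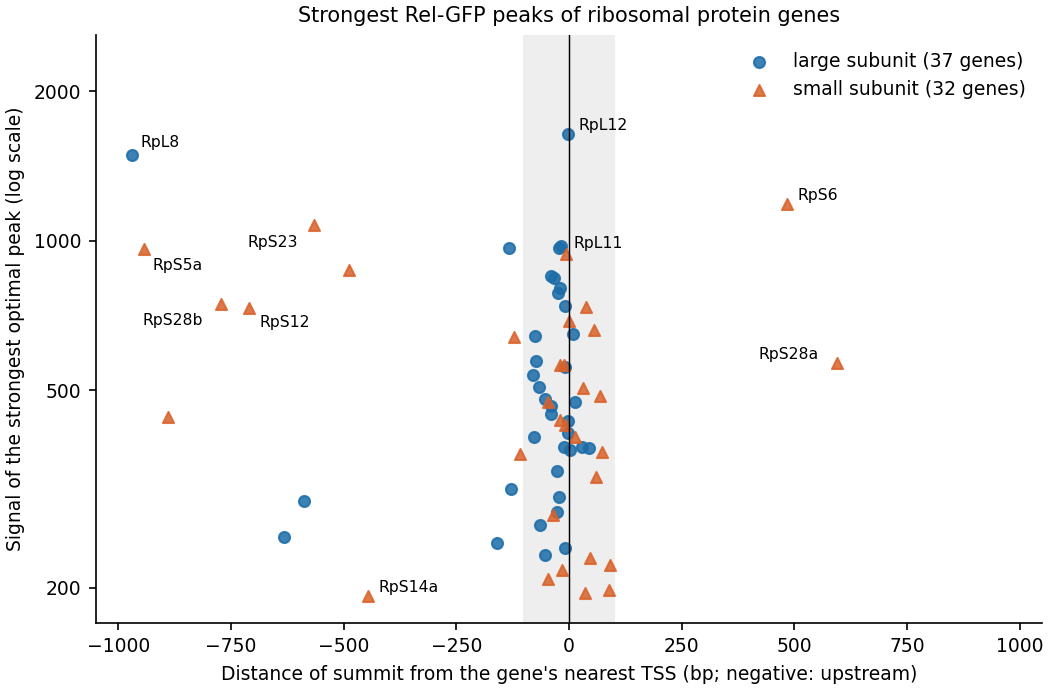
Signal of the strongest optimal peak (vertical axis, log scale) of 69 ribosomal protein genes against the distance of the summit from the gene's nearest TSS (horizontal axis, bp, negative is upstream), for 37 large subunit (blue circles) and 32 small subunit genes (orange triangles). The grey band is 100 bp on either side of the TSS. It holds 52 of the 69 summits plotted, and most of the stronger peaks outside it belong to small subunit genes.

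The plot of signal against position shows a dense column at the TSS and a scatter of peaks further out. The 52 peaks within 100 bp had a median rank of 3794.5 and the 19 peaks beyond 100 bp one of 2076. The subunits went opposite ways, with medians of 3608 within and 6025.5 beyond for large subunit genes (31 and 6 peaks), and of 4154 within and 2026 beyond for small subunit genes (21 and 13 peaks). Over all genes the medians were 4459 within and 3330.5 beyond. Just inside the 1000 bp limit lay RpL8 at 970 bp and RpS5a at 943 bp upstream. The nearest optimal summit of a member outside the limit was 4229 bp from RpL24-like.

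Sharing of a peak with a neighbouring gene was little more common among members than among all genes with a peak. Another protein-coding TSS lay within 1000 bp of 55 of 88 members (62.5%), against 42.9% of all genes, and the nearest one was on the opposite strand in 51 of these 55. The strongest peak was also within 1000 bp of another gene's TSS at 45 of 71 members (63.4%), against 56.8% of genes with a peak. This was so at 34 of 37 mitochondrial ribosomal protein genes (91.9%) and 16 of 24 proteasome subunit genes (66.7%) with a peak. The peak was nearer to the other gene at 11 members (15.5%), 3 large and 8 small, against 28% of genes. Of members with a neighbour, 47 of 55 had a peak (85.5%), against 54.0% of all genes with a neighbour. Of members with no neighbour, 24 of 33 did (72.7%), against 25.8% of such genes.

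Among the stronger of the 11 peaks nearer to a neighbour were those at RpL8, RpS5a, RpS16, RpS28b and RpS12. The RpL8 peak (rank 854, relative signal 3.39, 4.06 and 3.71) lay 54 bp from the TSS of msn, a kinase of the JNK pathway. RpL8, a protein near the peptidyl transferase centre, had a second, weaker summit 6 bp from its own TSS at rank 5606. The RpS5a peak (rank 1504) was 176 bp from Chchd2, and RpS5a had its own summit 17 bp from a TSS at rank 2979. RpS16, RpS28b and RpS12 had peaks at rank 1704 (410 bp from CG4294), 2026 (102 bp from l(1)G0320) and 2076 (45 bp from Adk2, an adenylate kinase gene). Each of these 3 genes also had a weaker summit closer to its TSS. Those summits lay 18, 23 and 12 bp upstream of the TSS, at ranks 3263, 3247 and 5747. The TSSs of RpS16 and CG4294 lay 78 bp apart, so the summit near RpS16 may belong to either gene.

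At other divergent pairs the strongest summit lay close to the TSSs of both genes. The TSSs of RpL13 and Dref, which encodes the DRE-binding factor, lay 84 bp apart, and the shared summit (rank 1852) was 20 bp upstream of RpL13 and 64 bp upstream of Dref. RpL7 and Ripalpha were 30 bp apart, RpL14 and Nelf-E, a subunit of the negative elongation factor, 127 bp, and RpS27 and Nup37, a nuclear pore gene, 144 bp. The summit was 86 bp from the TSS of Ripalpha, 102 bp from that of Nelf-E and 138 bp from that of Nup37, and RpS27 had a second, weaker peak within 1000 bp. Peaks at such pairs cannot be given to either gene. No member had a TSS within 1000 bp of another member's TSS.

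Copies of the same ribosomal protein differed in their peaks. Of 12 sets of paralogous members, 6 had a peak at 2 copies and 6 at 1 copy. The peak was at RpL7, RpL10Ab, RpL22, RpL24, RpL37-1 and RpS10b, against none at RpL7-like, RpL10Aa, RpL22-like, RpL24-like, RpL37-2 and RpS10a. RpL7-like and RpL24-like resemble the yeast ribosome assembly factors Rlp7 and Rlp24 and may not be ribosomal proteins. Where both had one, ranks were 1493 for RpL34b and 3312 for RpL34a, 1504 for RpS5a and 8767 for RpS5b, and 2249 for RpS14b and 9377 for RpS14a. They were 4017 for RpS15Aa and 2374 for RpS15Ab, 3475 for RpS19a and 3961 for RpS19b, and 2026 for RpS28b and 2866 for RpS28a. RpS28-like had none. Not all of these peaks lay at the copy's own TSS. The RpS14a peak was 445 bp upstream and 35 bp from the TSS of Dhdds, the RpS28a peak was 595 bp downstream and 168 bp from Mgat2, and the RpS19b peak was 890 bp upstream and 508 bp from CG5854. None of these 3 copies had an optimal summit within 100 bp of its own TSS. The ranks given for RpS5a and RpS28b are also those of peaks nearer to a neighbour, as described above. The summits closest to their own TSSs were at ranks 2979 and 3247. RpS14a and RpS14b are near-identical tandem copies, and how reads that fit both were placed is not given in the sources used here.

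The 17 members without an optimal peak were 13 large and 4 small subunit genes. They were RpL5, RpL7-like, RpL9, RpL10, RpL10Aa, RpL15, RpL21, RpL22-like, RpL24-like, RpL36, RpL37-2, RpL38, RpL40, RpS10a, RpS26, RpS27A and RpS28-like. RpL40 and RpS27A are made as fusions with ubiquitin. RpL10Aa, RpL37-2, RpL38 and RpS10a had no summit within 1000 bp in any replicate, pooled or optimal list. At 5 of the 17, RpL5, RpL9, RpL10, RpL36 and RpS26, a summit lay within 100 bp of a TSS in all 3 replicate lists. That is 5.68% of members, against 3.86% of all genes.

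RpS26, a protein near the exit of the mRNA channel, had such summits 69, 33 and 53 bp upstream of the TSS at ranks 7947, 5571 and 4753 in replicates 1, 2 and 3. Its nearest pooled summit was 1005 bp away. RpL10, which in yeast joins the large subunit late in its maturation, had summits 42, 24 and 58 bp from the TSS at ranks 7144, 10639 and 7398. RpL5 had them 56, 47 and 33 bp away at ranks 12952, 9463 and 7002. Their nearest pooled summits were 147392 bp (RpL10) and 43103 bp (RpL5) away. Summits at the TSS in all 3 replicate lists with none in the pooled list within 1000 bp were thus seen at 3 members (3.41%), against 0.244% of all genes (34 of 13945). With the 9419 strongest peaks of each replicate alone this left RpS26 (1.14%), against 0.0359% of all genes. RpS27A had summits within 100 bp in replicates 1 and 3, at ranks 3301 and 4479, and none within 1000 bp in replicate 2.

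**Figure D4:**
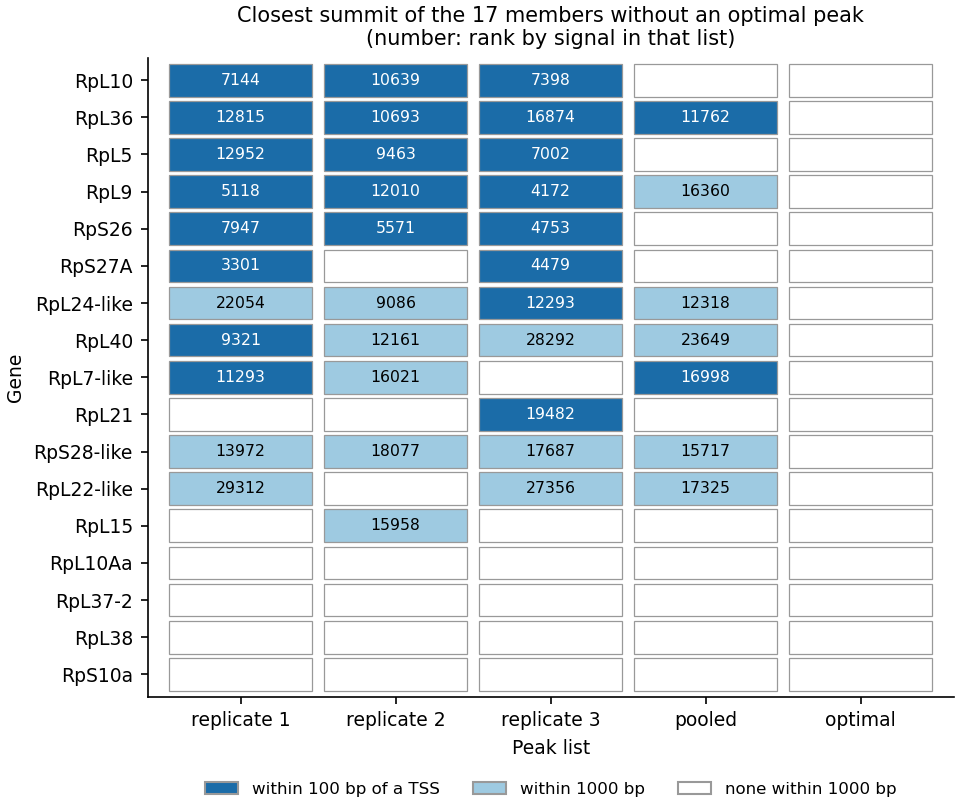
The 17 ribosomal protein genes without an optimal peak (rows) in each peak list (columns). Dark cells hold a summit within 100 bp of a TSS, light cells one within 1000 bp and white cells none, and the number is the rank by signal of the summit closest to a TSS in that list. The first 5 rows are dark in all 3 replicates, and only RpL36 of these is dark in the pooled list.

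The grid of these genes by list shows a top block present in all replicates and a bottom block of 4 genes absent from all lists. Members without a peak had fewer other peaks around them. Within 100000 bp of their TSSs they had a median of 7 other optimal summits, against 21 for members with a peak. All genes without and with a peak had medians of 16 and 20. RpL10, RpL15, RpL21 and RpL38 had 0 and RpL5 had 1. RpL5, RpL15 and RpL38 are known heterochromatic genes close to the centromeres. By arm, 10 of 18 members on 2L had a peak (55.6%), against 34.8% of all protein-coding genes there. The shares were 84.2% of members against 41.4% of all genes on 2R, 84.6% against 38.4% on 3L, 87% against 38.3% on 3R and 92.9% against 37% on X. The single member on 4, RpS3A, had a peak, as did 12.5% of all genes on that arm. Host genes were those with a small nucleolar RNA gene within their span on the same strand. Host members had a peak within 1000 bp in 26 of 28 cases (92.9%), against 77.4% of all host genes (65 of 84). The 84 host genes include these 28 members, which raises the shares of all host genes here and within 100 bp. Other members had one in 45 of 60 cases (75%), against 37.7% of all other genes. Within 100 bp the shares were 75% of host members against 51.2% of all host genes, and 63.3% of other members against 18.5% of all other genes. The difference between hosts and other members was not tested.

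The promoters of members carried the TCT element far more often than other promoters. A TCT match on the gene's strand, with its C within 5 bp of an annotated TSS, was found at 53 of 88 members (60.2%), 29 of 50 large and 24 of 38 small. It was found at 2.13% of all protein-coding genes. Of members with a TCT match, 44 of 53 had an optimal summit within 1000 bp (83.0%) and 40 within 100 bp (75.5%). Of members without one, 27 of 35 (77.1%) and 19 (54.3%) did. Among all genes with a TCT match 53.2% had an optimal summit within 1000 bp (158 of 297) and 33.0% within 100 bp (98 of 297). These counts include the 53 members, with 44 and 40 summits, which raises both shares. Among all genes without one the shares were 37.6% and 18.3%. A match is a description of the sequence and not of a bound factor.

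Other motifs were counted on both strands from 250 bases before to 50 after the canonical TSS. The DRE (TATCGATA), the site of Dref, stood in 28 of 88 member promoters (31.8%), 15 large and 13 small, against 8.94% of all genes. Mitochondrial ribosomal protein and proteasome genes were also above that level, as given below. The core of the M1BP site (GGTCACAC) stood in 12 (13.6%), against 7.54%. The E-box (CACGTG), the site of Myc and Max, stood in 10 (11.4%), against 4.26%, and all 10 were large subunit genes: RpL6, RpL7, RpL7-like, RpL11, RpL24, RpL24-like, RpL29, RpL32, RpL34b and RpL35. No small subunit promoter held it in this window. The TATA box (TATAAA) stood in 46.6% of member promoters, against 45.3% of all.

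**Figure D5:**
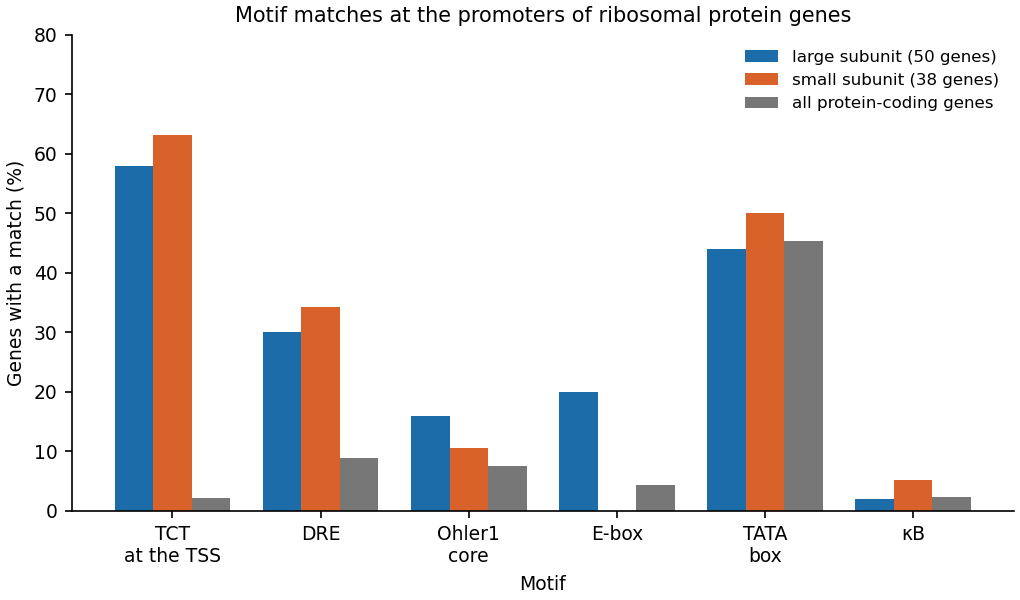
Percent of genes (vertical axis) with a match to each motif (horizontal axis) in large subunit genes (blue), small subunit genes (orange) and all protein-coding genes (grey). TCT was counted within 5 bp of an annotated TSS and the others from 250 bases before to 50 after the canonical TSS. TCT stands at 58% and 63.2% in the subunits and 2.13% in all genes, and the E-box at 20% in large and 0 in small subunit genes.

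The bars of motif shares show the TCT element and the DRE above the level of all genes in both subunits, and the TATA box close to it. The κB consensus stood in 3 member promoters (3.41%), against 2.25% of all.

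Motifs were also counted around the summits. Within 100 bp of the summit of the strongest peak, a DRE stood at 16 of 71 members (22.5%), against 7.24% of the 5288 genes with a peak, and an E-box at 7 (9.86%), against 2.72%. The E-box matches were at 6 of 37 large and 1 of 34 small subunit genes, with RpS4 as the small subunit gene. The M1BP core was found at 9 (12.7%), against 8.21%. Among genes whose strongest summit lay within 100 bp of the TSS, it was at 6 of 52 members (11.5%), against 13.6%. A DRE was then at 14 (26.9%), against 11.8%, and an E-box at 7 (13.5%), against 3.02%. The κB consensus was found at 2 of 71 (2.82%), against 6.47%. Both lay in peaks with the summit more than 100 bp from the TSS, and none was found at the 52 members with the summit within 100 bp, against 3.83% of such genes. The 2 sites, shown because they are the κB matches under member peaks, lay 45 bp from the RpS20 summit (3R:20822100-20822109, minus strand) and 15 bp from the RpS6 summit (X:7900828-7900837, both strands, plus shown).
RpS20: GGGGTGTTCC
RpS6: GGGGAATCCC
The capitals mark the whole match. The RpS20 summit, 122 bp upstream of the TSS, was at rank 2463, with relative signals of 0.896, 2.09 and 1.84 in replicates 1, 2 and 3. The RpS6 site lay under the coding-exon peak described above.

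Genes linked to ribosomal proteins were counted for comparison. All 6 genes listed as ribosomal proteins outside the symbol rule had an optimal summit within 100 bp of a TSS. Their strongest peaks included RpLP0-like at rank 1188, RpLP2 at 1874, sta at 2613 and Rack1 at 3573. RpLP0-like, like RpL7-like and RpL24-like, may not be a ribosomal protein. Of the 5 known regulators, Trf2 (rank 1777), Dref (1852), M1BP (3295) and Max (5664) had a peak within 1000 bp, and Myc had none. The Dref peak was the one shared with RpL13. All 4 of these peaks also lay within 1000 bp of another gene's TSS, and 3 were nearer to it. Of 15 ribosome biogenesis genes 9 had a peak within 1000 bp, led by Ns2 (955), Nopp140 (3426), pit (4135) and NHP2 (4937). Of 73 mitochondrial ribosomal protein genes 37 had a peak within 1000 bp (50.7%) and 23.3% within 100 bp. Of 48 proteasome subunit genes 24 did (50%), with 35.4% within 100 bp. Beside each of these counts, the share of all protein-coding genes was 37.9% within 1000 bp and 18.7% within 100 bp. Median relative signal in replicates 1, 2 and 3 was 1.39, 1.34 and 1.34 for the mitochondrial genes (1.36 ± 0.028, SD, n = 3) and 0.726, 0.885 and 0.781 for the proteasome genes (0.797 ± 0.081). The values of the cytosolic ribosomal protein genes given above were 1.35, 1.07 and 1.35. They were below the mitochondrial ones in replicates 1 and 2, by more than 0.1 in replicate 2 alone, and slightly above in replicate 3. They were above the proteasome ones in all 3 replicates. A TCT match was found at 2.74% of the mitochondrial ribosomal protein genes and 2.08% of the proteasome genes. The DRE was less particular to the members. It stood in 15 of 73 mitochondrial (20.5%) and 12 of 48 proteasome promoters (25%), against 28 of 88 members and 8.94% of all genes. The M1BP core stood in 8 of 73 and 6 of 48, against 12 of 88 members. The E-box stood in 5 of 73 and 0 of 48, against 10 of 88 members.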

How the data were processed

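The read-me texts deposited by the authors say that peaks were called against a control in each replicate and in all 3 together, in dm6 coordinates, and that the optimal list came from these lists. The aligner, peak caller, discovery rate threshold and read depth are not given in these sources, and the control is not analysed here. Signal values are as deposited by the authors, and their scale may differ between lists, so ranks and relative signal were compared. The −log10 q-value, also deposited by the authors, is 4.43 for every optimal peak and was not used. Fragments were of 200 to 800 bp, per the labels. TSSs came from Ensembl release 115 and sequences from RefSeq release 6, both in dm6 coordinates, 1-based. A gene's peaks are those with a summit within 1000 bp of any TSS, and its rank is that of the strongest. Members and lists were chosen with earlier results of these data known. Text names the 8 strongest members per subunit, all members without a peak, paralogous copies, the 6 strongest peaks nearer to another gene, and at most 4 from each further list. The values of 2 of these members are not reported here, and both are left out of the plots of single genes. RpS20, the divergent pairs, the genes with an E-box and the arms were singled out after their values were seen. The scripts' counting, matching and permutation steps were tested on simulated data. Python 3.11.15, numpy 2.4.6, pandas 2.3.3, scipy 1.17.1 and matplotlib 3.10.9 were used.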

Additional observations from a re-analysis of the deposited data

How the results depend on the processing

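Of 88 values recomputed under other settings, 58 moved by less than the spread between replicates, stayed within their 95% interval or, for the subunit differences, kept their sign, and 1 reversed. The optimal share of large minus small subunit genes with a peak (-15.5 points) was -4.95 points within 500 bp and turned to 2.21 points within 100 bp. It was -6.11 points in the pooled list and -8.53 in the stronger 50% of optimal peaks. The share of members with a peak (80.7%) was 76.1% within 500 bp, 67.0% within 100 bp, 55.7% in the stronger 50% of optimal peaks, 88.6% in the pooled list, 84.1% in the lists of replicates 1 and 3, 86.7% without -like genes and second copies, and 73.9% to 77.3% without 1 replicate. All protein-coding genes had 33.5% within 500 bp, 18.7% within 100 bp, 22.9% in the stronger 50%, 53.6% in the pooled list, 37.9% and 37.8% in the lists of replicates 1 and 3, and 36.1% to 36.4% without 1 replicate. The median rank percentile (38.3) was 21.5 within 5000 bp, 52.3 in the stronger 50%, 13.1 in the pooled list and 45.3 in replicate 2's list. The median summit distance (-23 bp) was -58 bp in replicate 2's list. Median relative signal (1.25) was 1.91 within 5000 bp and 1.54 in the stronger 50%. The share of peaks also near another gene (63.4%) was 38.8% within 500 bp, 98.6% within 5000 bp, 62.0% with the outermost TSS alone, 69.4% in the stronger 50%, 65.4% in the pooled list and 64.2% to 66.2% without 1 replicate. Peaks matched in all 3 replicates (91.5%) were 60.6% within 50 bp and 97.2% within 250 bp. At the 100 bp used throughout, 90.7% of all genes with a peak were so matched, close to the members. TCT matches (60.2%) were 18.2% within 2 bp, 81.8% within 10 bp and 42.0% at the canonical TSS alone. All protein-coding genes had 0.861%, 4.09% and 1.45% under these 3 settings. The cause of these changes was not tested, beyond what wider or narrower windows and lists give by construction. The 100 bp shares, the canonical TSS and the closest summit were alternatives chosen after seeing the data. No paired analysis was possible because there is 1 group and replicate numbers pair no samples. The unknown depth, the lack of a second condition and the use of whole larvae limit what the peaks can show.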
